A study of Homo sapiens and Mus musculus with 24 samples.

Results

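The genes coding for proteasome subunits were taken by name, as the protein-coding genes whose GENCODE symbol starts, in capitals or lower case, with PSMA, PSMB, PSMC or PSMD followed by a digit. This rule found 40 of the 58381 genes in the human files and 40 of the 53715 genes in the mouse files, 80 in all. They were followed in UPA-seq, which sequences the RNA left in the aqueous phase when living cells are irradiated with UV and extracted with phenol-chloroform. RNA crosslinked to protein moves to the interphase and is missing from such libraries. The samples came from HepG2, a human hepatocellular carcinoma line, HEK293, a human embryonic kidney line, Neuro2a, a mouse neuroblastoma line, and HippCulture, primary cultures of hippocampal neurons from E16.5 mouse embryos. Each cell type had 3 nonirradiated samples, used for conventional RNA-seq, and 3 UV-irradiated samples, 24 in all, and the labels give no other treatment and no genetic change. The methods of the study name the kidney line HEK293T, whereas the sample labels say HEK293. The study describes its replicates as biological triplicates. The hippocampal cultures were treated with AraC, which kills dividing cells, to deplete glia.

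The 26S proteasome is the ATP-dependent protease that degrades ubiquitin-tagged proteins in the cytoplasm and nucleus of eukaryotic cells. Its 20S core is a barrel of stacked rings, in which alpha subunits (PSMA genes) form the outer gates and beta subunits (PSMB genes) the inner chamber with the proteolytic sites. The 19S regulatory particle caps the core with a ring of ATPases that unfold substrates (PSMC genes) and with scaffold, ubiquitin-binding and lid subunits (PSMD genes). The members comprise 8 genes of the alpha ring, 7 constitutive beta genes, 4 beta genes of the immunoproteasome and thymoproteasome, 6 ATPases, 3 other genes of the base, 8 lid genes and 3 assembly chaperones that bear PSMD names. PSMC3IP, a meiotic recombination factor, carries a matching name but is no subunit.

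Total counts on genes ran from 36573473 to 53511592 in HepG2 samples and from 6910907 to 11188033 in the others, so HepG2 was sequenced more deeply. HepG2, Neuro2a and HippCulture carried markers of their kind, and HEK293, for which no marker list was used, was checked only for the hepatocyte list, with ALB, coding for albumin, at 4060 RPKM, the reads per kilobase of exon scaled to library size, in nonirradiated HepG2 and 0.031 in HEK293, Hand2 of noradrenergic neuroblasts at 49.4 RPKM in Neuro2a, and Neurod6 of hippocampal neurons at 74.5 RPKM in HippCulture. The noradrenergic markers Gata3 and Th had means of 0.097 and 0.481 RPKM in nonirradiated Neuro2a. Astrocyte markers were present in HippCulture after the AraC treatment, where all 4 (Gfap, Aqp4, Aldh1l1 and Slc1a3) were detected and summed to between 83.5 and 97.9 RPKM before and 74.0 and 94.1 RPKM after UV, beside 0.483 to 0.620 RPKM in nonirradiated Neuro2a. In bulk samples such as these, fewer cells of a type and less RNA per cell cannot be told apart.

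Proteasome mRNAs were more abundant in the irradiated samples of all 4 cell types, relative to the bulk of genes. Reads were compared with edgeR's quasi-likelihood test after TMM scaling, which centres the bulk of genes on no change, and a gene was called at a Benjamini-Hochberg adjusted p under 0.05 over all genes tested. In HepG2, 36 of the 38 members tested were called higher and 1 lower, where 38.1% of all 20117 genes tested, and 45.9% of mRNAs, were called higher and 40.7% of all genes lower. In HEK293, 31 of 37 were called higher and 0 lower, beside 24.2% of all genes and 27.9% of mRNAs higher and 26.4% of all genes lower. In Neuro2a, 37 of 38 were called higher and 0 lower, beside 28.9% of all genes and 33.3% of mRNAs higher and 33.0% of all genes lower. In HippCulture, 34 of 37 were called higher and 0 lower, beside 26.1% of all genes and 30.9% of mRNAs higher and 25.9% of all genes lower. In these last 3 cell types, edgeR also found 0 members lower at an unadjusted p under 0.05, and DESeq2 called 0 lower. The median log2 fold change of the members tested was 1.47 in HepG2 cells, 1.17 in HEK293 cells, 1.32 in Neuro2a cells and 0.96 in HippCulture, beside medians of -0.08, -0.08, -0.14 and -0.04 over all genes tested.

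These directions depend on the scaling. With counts scaled by library size alone, the median log2 fold change of all genes tested was -1.38 in HepG2 cells, -0.84 in HEK293 cells, -1.32 in Neuro2a cells and -0.59 in HippCulture, and that of the members 0.16, 0.40, 0.13 and 0.42. The calls then split into 17 members higher and 10 lower in HepG2 cells, 15 and 4 in HEK293 cells, 12 and 6 in Neuro2a cells, and 19 and 1 in HippCulture. Summed over the members, the share of all counts was 0.267% ± 0.036 (SD, n = 3) before and 0.322% ± 0.002 after UV in HepG2 cells, 0.435% ± 0.091 and 0.583% ± 0.096 in HEK293 cells, 0.331% ± 0.016 and 0.364% ± 0.024 in Neuro2a cells, and 0.228% ± 0.011 and 0.291% ± 0.036 in HippCulture. The HEK293 groups overlapped in this share, though it was higher after UV within each replicate number, at 0.535% and 0.683%, 0.415% and 0.573%, and 0.356% and 0.492%. The groups of the other cell types did not overlap. Those of Neuro2a lay close, with a highest share of 0.347% before and a lowest of 0.349% after UV. Of counts on protein-coding genes, the members held a mean of 0.346% before and 0.593% after UV in HepG2 and 0.518% and 0.821% in HEK293. In Neuro2a they held 0.437% and 0.652%, and in HippCulture 0.306% and 0.498%. The 10 genes with most counts held 19.3 to 23.1% of all counts before and 39.3 to 40.5% after UV in HepG2. In HEK293 they held 9.4 to 10.7% and 21.0 to 26.8%, and in Neuro2a 22.5 to 24.8% and 47.9 to 49.0%. In HippCulture they held 21.5 to 32.4% and 40.3 to 52.4%. The part of these genes in the values by library size was not tested. Fold changes and directions below are on the TMM scale, relative to the bulk of genes, unless library size is named.

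The normalized counts of single members also separated the groups. All 3 irradiated samples lay above all 3 nonirradiated ones for 36 of 38 members tested in HepG2 cells, 29 of 37 in HEK293 cells, 37 of 38 in Neuro2a cells and 35 of 37 in HippCulture. Over all genes tested, 37.8%, 27.0%, 29.3% and 28.4% lay above without overlap in the same order of cell types, and 44.9%, 32.1%, 38.1% and 31.5% below. In HEK293, replicate 1 had the highest normalized count for 34 of 37 members among the nonirradiated samples and for 33 of 37 among the irradiated ones, and replicate 3 the lowest for 35 and 33. The HEK293 samples with the same replicate number deviated together for every number, and with the replicate as a block 33 members were called higher and 2 lower there. In HepG2, the nonirradiated replicate 1 was the lowest of its group for 32 of 38 members. Without any 1 sample, 36 members were called higher in HepG2 and 24 to 32 in HEK293.

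**Figure D1:**
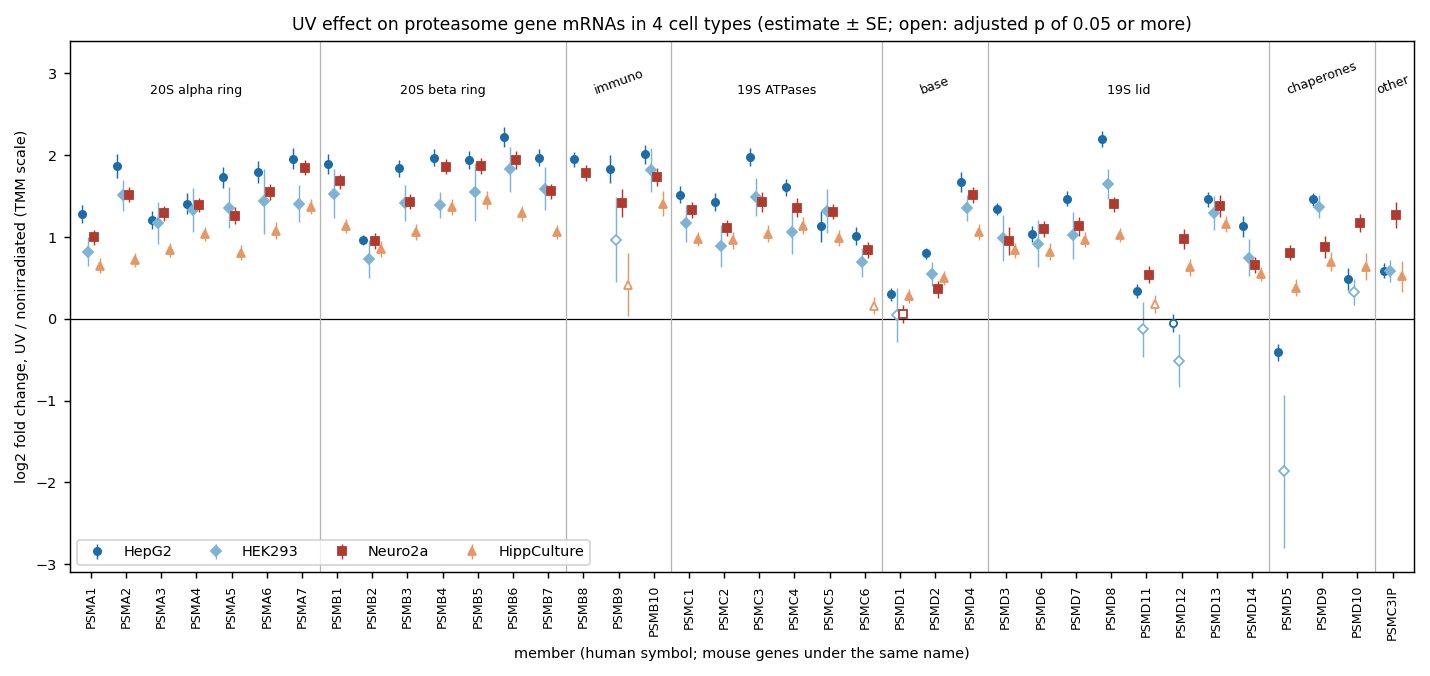
Log2 fold change of UV-irradiated over nonirradiated samples on the TMM scale (y axis, estimate with SE) for the members tested, ordered by role, in 4 cell types with 3 samples a group; open symbols missed an adjusted p of 0.05. Values of the 20S rings and the immunoproteasome lie between 0.42 and 2.22, and the lowest value belongs to PSMD5 in HepG2 and HEK293, to Psmd1 in Neuro2a and to Psmc6 in HippCulture; by library size alone, 14 of 38 values in HepG2 cells, 10 of 37 in HEK293 cells, 15 of 38 in Neuro2a cells and 7 of 37 in HippCulture were below 0.

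The 7 constitutive beta genes were called higher in every cell type, with median log2 fold changes of 1.94 in HepG2 cells, 1.53 in HEK293 cells, 1.68 in Neuro2a cells and 1.14 in HippCulture. PSMB6, which carries the caspase-like site of the core, had the highest value of all members in the first 3 of these. It lies on human chromosome 17 (hg38, 4796144 to 4798503, forward strand) in 5 exon blocks that no other annotated gene overlaps. In HepG2, PSMB6 had normalized counts of 1664, 2279 and 2311 in nonirradiated and 9492, 9390.4 and 8899 in irradiated samples. The groups lay far apart, with a log2 fold change of 2.22 (SE 0.122, adjusted p = 5.8e-07). In HEK293, its counts were 895, 749 and 496 before and 3524, 2336 and 1758 after UV, a log2 fold change of 1.83 (SE 0.275, adjusted p = 0.00063). In Neuro2a, Psmb6 counted 664, 587 and 509.6 before and 2379, 2087 and 2105 after UV, a log2 fold change of 1.94 (SE 0.110, adjusted p = 5.4e-09). In HippCulture it counted 439, 415 and 469.7 before and 949, 1182 and 1079.8 after UV, a log2 fold change of 1.29 (SE 0.090, adjusted p = 5.3e-10). The groups overlapped in none of the 4 cell types, and the exact permutation test of 3 against 3 samples, two-sided, gave p = 0.1 in each, the smallest it allows. By library size alone the value of PSMB6 was still above 0, at 0.91, 1.05, 0.75 and 0.74.

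The other catalytic subunits of the standard core were also separated in all 4 cell types. PSMB5, which holds the chymotrypsin-like site that bortezomib blocks, counted 5076, 6896 and 6512 before and 22981, 22896 and 21896 after UV in HepG2, a log2 fold change of 1.94 (SE 0.113, adjusted p = 7.5e-07). In HEK293 it counted 1354, 669 and 655 before and 4077, 1913 and 1884 after UV, a log2 fold change of 1.55 (SE 0.357, adjusted p = 0.0062). Replicate 1 stood above the others in both HEK293 groups, and its nonirradiated value lay below every irradiated one. Psmb5 counted 428, 386 and 371 before and 1488, 1369 and 1360.3 after UV in Neuro2a, a log2 fold change of 1.87 (SE 0.095, adjusted p = 2.8e-09). In HippCulture, Psmb5 was the highest of all members, with 334, 354 and 408 before and 822, 1193 and 958 after UV and a log2 fold change of 1.45 (SE 0.112, adjusted p = 2e-09). PSMB7, with the trypsin-like site, had log2 fold changes of 1.97 (SE 0.102) in HepG2 cells, 1.59 (SE 0.263) in HEK293 cells, 1.56 (SE 0.091) in Neuro2a cells and 1.06 (SE 0.086) in HippCulture, with adjusted p-values of 4.5e-07, 0.0011, 6.7e-09 and 4e-09. Its counts ran from 1709 to 2213 before and 7391 to 7839 after UV in HepG2 cells, from 559 to 949 and 1611 to 3169 in HEK293 cells, from 863 to 938 and 2489 to 2695 in Neuro2a cells, and from 563 to 609.6 and 1073 to 1309 in HippCulture, with no overlap in any. Among the beta subunits without a proteolytic site, Psmb4 was among the 3 highest members in Neuro2a, with 821, 809 and 743 before and 2737, 2803 and 2822 after UV and a log2 fold change of 1.86 (SE 0.092, adjusted p = 2.7e-09). PSMB2 had the lowest value of the constitutive beta genes in each cell type, from 0.73 in HEK293 to 0.96 in HepG2, and was below 0 by library size alone in all but HippCulture.

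Of the inducible catalytic subunits of the immunoproteasome, which serves antigen presentation, PSMB8 and PSMB9 were low in HEK293 and HippCulture. PSMB10 had 5.40 and 5.80 RPKM in these nonirradiated cells, beside 7.88 in HepG2 and 15.07 in Neuro2a. PSMB8 counted 442, 550.2 and 536 before and 1817, 1941 and 1895 after UV in HepG2, a log2 fold change of 1.95 (SE 0.091, adjusted p = 3.2e-07). Psmb8 counted 258, 261 and 264 before and 811, 876 and 916 after UV in Neuro2a, a log2 fold change of 1.78 (SE 0.095, adjusted p = 3.7e-09). In HEK293 and HippCulture this gene had 1 to 5 reads per sample and was not tested, falling below a mean of 0.5 CPM (counts scaled to library size) in nonirradiated samples. PSMB9 counted 76.3, 102.3 and 123 before and 371, 309.6 and 348 after UV in HepG2, a log2 fold change of 1.83 (SE 0.174, adjusted p = 1.3e-05). Psmb9 counted 32.9, 29.1 and 30.5 before and 79.1, 80.1 and 82.2 after UV in Neuro2a, a log2 fold change of 1.42 (SE 0.173, adjusted p = 7.2e-06), which missed the threshold by library size alone at 0.23. The groups of PSMB9 overlapped in HEK293, with 3.4, 7.3 and 14.2 before and 10.7, 23.8 and 14.1 after UV and a log2 fold change of 0.97 (SE 0.518, adjusted p = 0.15), or 0.94 (SE 0.389, adjusted p = 0.031) with the replicate block. They overlapped in HippCulture too, with 7.8, 12.3 and 7.2 before and 9.0, 11.3 and 15.3 after UV and a log2 fold change of 0.42 (SE 0.385, adjusted p = 0.38), or -0.12 by library size alone. PSMB10 was called higher in all 4 cell types, with log2 fold changes of 2.01 (SE 0.121) in HepG2 cells, 1.82 (SE 0.269) in HEK293 cells, 1.73 (SE 0.111) in Neuro2a cells and 1.41 (SE 0.15) in HippCulture and adjusted p-values of 9e-07, 0.00057, 1.6e-08 and 1.5e-07. Its counts were 348, 444 and 483 before and 1697, 1704 and 1491 after UV in HepG2 cells, 100.6, 68.5 and 61.3 before and 385, 201 and 236 after UV in HEK293 cells, between 133 and 141 before and 390.2 and 498 after UV in Neuro2a cells, and between 59.9 and 74.8 before and 138 and 192 after UV in HippCulture. No sample overlapped, although 34.8% of the exon bases of human PSMB10 lie in another annotated gene and reads there counted for both. PSMA8, the testis-specific alpha subunit, had 0 reads in every sample, and the thymus-specific PSMB11 had 0 to 4, so neither was tested.

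**Figure D2:**
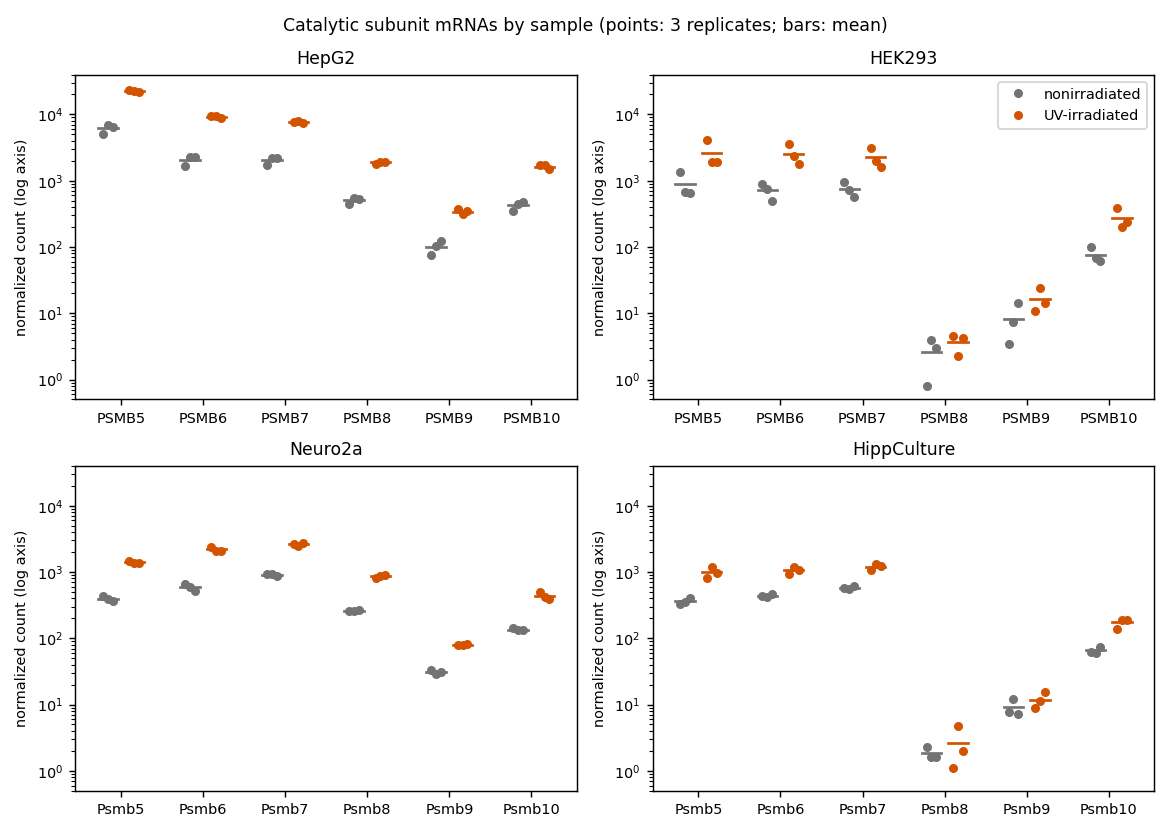
Normalized counts (y axis, log scale) of the 6 catalytic subunit genes in the 3 nonirradiated (grey) and 3 UV-irradiated (orange) samples of each cell type; points are samples and bars their means. PSMB5, PSMB6 and PSMB7 are separated in every panel, whereas PSMB8 lies between 0.8 and 4.8 in HEK293 and HippCulture in both groups; the counts are relative to the bulk of genes, and by library size alone the fold change of Psmb9 in HippCulture was below 0.

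The 7 genes of the alpha ring that were tested, which gate the entry to the core, were called higher in every cell type. Their median log2 fold changes were 1.73 in HepG2 cells, 1.36 in HEK293 cells, 1.39 in Neuro2a cells and 0.84 in HippCulture. Psma7 was among the 3 highest members in HippCulture, with counts of 495, 458 and 530.0 before and 1117, 1404 and 1282 after UV and a log2 fold change of 1.37 (SE 0.091, adjusted p = 3.1e-10). PSMA7 had 1.96 in HepG2, 1.41 in HEK293 and 1.85 in Neuro2a. PSMA3 and PSMA1 had the lowest values of the ring in HepG2, at 1.21 and 1.28, and both were below 0 there by library size alone, at -0.10 and -0.03.

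The ATPases of the 19S base unfold substrates and feed them into the core. All 6 were called higher in HepG2, HEK293 and Neuro2a and 5 of 6 in HippCulture, with medians of 1.47, 1.11, 1.32 and 0.99. The exception, Psmc6, counted 533, 462 and 519 before and 569, 459 and 631 after UV in HippCulture. The groups overlapped, with a log2 fold change of 0.16 (SE 0.103, adjusted p = 0.2), which reached 0.28 and passed without the irradiated replicate 2. In Neuro2a, Psmc6 had a log2 fold change of 0.84 (SE 0.101, adjusted p = 6.5e-06), and by library size alone both mouse values were below 0, at -0.38 and -0.36. Human PSMC1 was called higher at 1.52 and 1.17, but 75.8% of its exon bases lie opposite exons of NRDE2, and as the counting command named no strand its reads and those of NRDE2 cannot be told apart. Other members share exon bases too, among them PSMB8, with 21.2% opposite PSMB8-AS1, and mouse Psmc3ip, with 21.2% opposite Mlx. Human PSMA2 shares 34.6%, in part with MRPL32 on the opposite strand.

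The scaffold subunits PSMD1 and PSMD2, the large ring-shaped proteins of the base, lay below most members. PSMD1 counted 2718, 3106 and 3161 before and 3423, 3419 and 3722 after UV in HepG2, a log2 fold change of 0.30 (SE 0.078, adjusted p = 0.006) that turned to -1.0 by library size alone. The groups did not overlap there. In HEK293 they did, with 1605, 934 and 643 before and 1560.2, 992 and 762 after UV and a log2 fold change of 0.05 (SE 0.333, adjusted p = 0.9). Psmd1 counted 889, 769 and 725 before and 943, 748 and 716 after UV in Neuro2a, with overlap and a log2 fold change of 0.06 (SE 0.115, adjusted p = 0.69). In HippCulture it counted 927, 842 and 968 before and 1086, 1063 and 1139.8 after UV, without overlap, and had a log2 fold change of 0.28 (SE 0.081, adjusted p = 0.0057), or -0.26 by library size alone. Psmd2 was among the 3 lowest members in Neuro2a, with 1121, 1022 and 933 before and 1415, 1209 and 1217 after UV and a log2 fold change of 0.36 (SE 0.10, adjusted p = 0.0063) that turned to -0.83 by library size alone. PSMD2 was called higher at 0.80 in HepG2, 0.55 in HEK293 and 0.50 in HippCulture as well, all below 0 by library size alone. PSMD4, the ubiquitin receptor of the base, had 1.67, 1.35, 1.51 and 1.06 in HepG2, HEK293, Neuro2a and HippCulture and stayed above 0 on either scale.

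The lid, which holds the deubiquitinase PSMD14, ran from -0.05 to 2.20 in HepG2, -0.51 to 1.65 in HEK293, 0.54 to 1.40 in Neuro2a and 0.18 to 1.16 in HippCulture on the TMM scale. Of its 8 genes, 7 were called higher in HepG2 cells, 6 in HEK293 cells, 8 in Neuro2a cells and 7 in HippCulture, with medians of 1.23, 0.96, 1.04 and 0.83. PSMD8 was the second highest member of all in HepG2, with 1583, 2018 and 1965 before and 8337, 8534 and 7553 after UV and a log2 fold change of 2.20 (SE 0.102, adjusted p = 3.2e-07). In HEK293 it counted 3504, 2944 and 2325 before and 11133, 8449 and 7881 after UV, a log2 fold change of 1.65 (SE 0.187, adjusted p = 0.00014). The groups were well apart in both lines. PSMD11 was among the lowest members, with a log2 fold change of 0.34 (SE 0.087, adjusted p = 0.0062) in HepG2 and -0.13 (SE 0.332, adjusted p = 0.77) in HEK293, where it counted 1445, 853 and 659 before and 1373, 717 and 629 after UV with overlap. Psmd11 counted 291, 259.5 and 271 before and 417, 391 and 351 after UV in Neuro2a, a log2 fold change of 0.54 (SE 0.101, adjusted p = 0.00036). In HippCulture it counted 213, 171 and 203 before and 226, 216 and 217 after UV, just without overlap, with a log2 fold change of 0.18 (SE 0.108, adjusted p = 0.16). All 4 values of PSMD11 were below 0 by library size alone.

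PSMD12 of the lid and PSMD5, a chaperone of base assembly, were the lowest human members, while the mouse genes of the same names were called higher on the TMM scale. PSMD12 counted 1278, 1025 and 1044 before and 932, 1111 and 1049 after UV in HepG2, with overlap and a log2 fold change of -0.05 (SE 0.108, adjusted p = 0.7). In HEK293 it counted 889, 536 and 514 before and 733, 336 and 305 after UV. These groups overlapped, but each irradiated sample lay below the nonirradiated sample of its number, and the log2 fold change was -0.51 (SE 0.328, adjusted p = 0.22), or -0.55 (SE 0.086, adjusted p = 2e-07) with the replicate block. Psmd12 had log2 fold changes of 0.98 (SE 0.120, adjusted p = 7.5e-06) in Neuro2a, turning to -0.21 by library size alone, and 0.63 (SE 0.104, adjusted p = 3.5e-05) in HippCulture. The 3′ UTR of the annotated transcript with the longest coding part has 2930 nucleotides in human PSMD12 and 443 in mouse Psmd12. It has 1856 in human PSMD5 and 2845 in mouse Psmd5, and the part of this length was not tested. PSMD5 was the only member called lower in HepG2, with 579, 598 and 519 before and 400.4, 377 and 444 after UV and a log2 fold change of -0.41 (SE 0.10, adjusted p = 0.0049). Psmd5 had log2 fold changes of 0.81 (SE 0.090, adjusted p = 3e-06) in Neuro2a and 0.38 (SE 0.104, adjusted p = 0.0044) in HippCulture, both below 0 by library size alone, at -0.39 and -0.17. In HEK293, PSMD5 had 3 to 8 reads per sample before and 0 to 3 after UV. Its fitted log2 fold change of -1.86 (SE 0.935, adjusted p = 0.12), or -1.92 (SE 0.873, adjusted p = 0.048) with the replicate block, rests on these few reads and ran from -5.38 to -1.23 when 1 sample was left out. The lowest came without the irradiated replicate 2, the only irradiated sample with reads. Human and mouse samples were counted on different annotations, and the difference between species was not tested.

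The other chaperones of the base, PSMD9 and PSMD10, were called higher in every cell type except PSMD10 in HEK293. PSMD9 had 1.46, 1.37, 0.88 and 0.70 in HepG2, HEK293, Neuro2a and HippCulture, the Neuro2a value turning to -0.31 by library size alone. PSMD10, also known as gankyrin, had 0.49, 0.33, 1.17 and 0.64, of which the HEK293 value had an adjusted p of 0.1, or 0.00046 with the replicate block, and all but the last were below 0 by library size alone. PSMC3IP, which is no subunit, had 0.59, 0.59, 1.27 and 0.52, all but the Neuro2a value turning below 0 by library size alone.

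Longer transcripts had lower values among the members, as among all mRNAs. Across members, Spearman's rho between the log2 fold change and the length of the transcript with the longest coding part was -0.623 in HepG2 cells (n = 38), -0.619 in HEK293 cells (n = 37), -0.577 in Neuro2a cells (n = 38) and -0.593 in HippCulture (n = 37), beside -0.581, -0.614, -0.588 and -0.550 across all mRNAs tested. These are descriptions across genes that share libraries, not tests. The median member had 1482 nucleotides in HepG2 and 1490.0 in Neuro2a, beside 3157 and 2948 for all mRNAs tested. Length classes, chosen after the values were seen, set the members beside mRNAs of like length. Below 1000 nucleotides, the 9 members tested in HepG2 had a median of 1.96 and all mRNAs 1.75. From 1000 to below 2000, 17 members had a median of 1.47 and all mRNAs 1.08. From 2000 to below 4000, 8 members had 1.07 and all mRNAs 0.31, and from 4000 upwards 4 members had 1.19 and all mRNAs -0.55. The 4 longest were PSMB2, PSMA4 and PSMC1, at 0.96, 1.41 and 1.52, and PSMD12 at -0.05. From the shortest class to the longest, the members above the mRNA median of their class were 8 of 9, 13 of 17, 6 of 8 and 4 of 4 in HepG2, and 8 of 9, 12 of 16, 5 of 8 and 4 of 4 in HEK293. They were 3 of 5, 23 of 24, 8 of 8 and 1 of 1 in Neuro2a, and 4 of 5, 20 of 23, 8 of 8 and 1 of 1 in HippCulture. The part of transcript length in the response of the members was not tested.

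**Figure D3:**
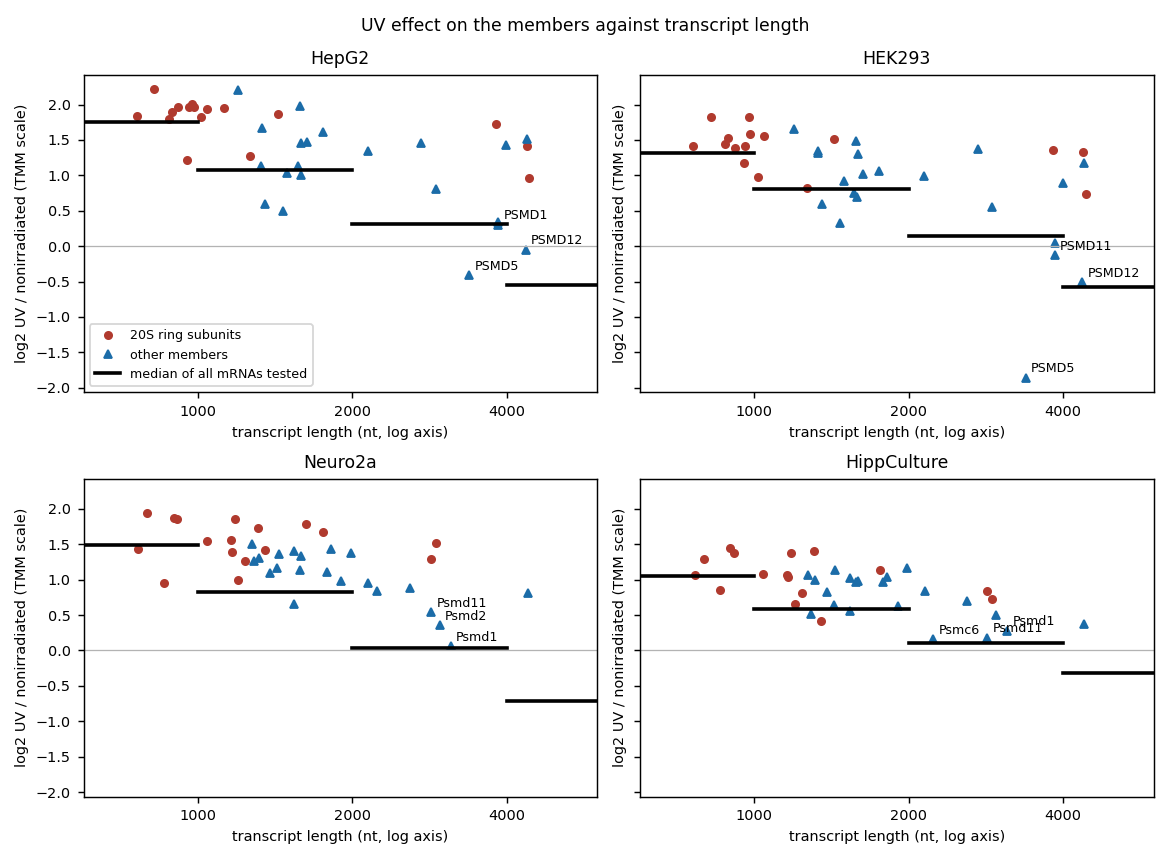
Log2 fold change of UV-irradiated over nonirradiated samples on the TMM scale (y axis) against the length of the transcript with the longest coding part (x axis, nucleotides, log scale) for the members tested; circles are 20S subunits, triangles other members and black bars the medians of all mRNAs in 4 length classes. In HepG2 the bars fall from 1.75 to -0.55, and PSMD5 and PSMD12 are the members below 0; by library size alone 14 of 38 HepG2 members were below 0.

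Genes that work with the proteasome but do not match the rule were read from 5 lists of 35 genes in all. Of those tested, 23 were called higher and 6 lower of 35 in HepG2 cells, 17 and 5 of 35 in HEK293 cells, 18 and 9 of 34 in Neuro2a cells, and 20 and 7 of 34 in HippCulture, with medians of 0.57, 0.51, 0.42 and 0.50. SEM1, a short lid subunit without a PSMD name, had 2.03, 1.5, 1.72 and 1.09 in HepG2, HEK293, Neuro2a and HippCulture, and the PA28 activator genes PSME1 and PSME2 had 1.77 and 1.76 in HepG2 and 1.22 and 1.17 in HippCulture. The core maturation factor POMP had 1.93, 1.37, 1.57 and 1.14, and the ubiquitin fusion gene RPS27A reached 2.60 in HepG2. These stayed above 0 by library size alone. The related PSME3 had an uncalled 0.11 in HepG2, 0.68 in HEK293 and -0.20 in HippCulture and was called lower at -0.43 in Neuro2a. The deubiquitinase UCHL5 was called lower in HEK293, at -0.53, and higher in Neuro2a and HippCulture, at 0.94 and 0.64, the former turning to -0.25 by library size alone. PSME4, coding for the activator PA200, had -0.85, -0.78, -0.95 and -0.46, and the ubiquitin-activating enzyme UBA6 had -1.15, -1.65, -1.84 and -0.64, all called lower, whereas the main ubiquitin-activating enzyme UBA1 had 0.29, 0.20, 0.15 and 0.27, called higher in HepG2 and HippCulture but below 0 in all 4 by library size alone. NFE2L1, the transcription factor that induces proteasome genes when the protease is inhibited, had 0.40 in HepG2, called higher but -0.91 by library size alone, an uncalled -0.19 in HEK293, and -1.07 and -0.27 in Neuro2a and HippCulture, both called lower.

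The members kept a similar order in the 4 cell types. Spearman's rho between their log2 fold changes was 0.936 between the human lines (n = 37) and 0.835 between the mouse cell types (n = 37), beside 0.864 and 0.839 across all mRNAs tested in both. Across species, with genes joined by symbol, rho was 0.864 for HepG2 and Neuro2a (n = 38), 0.761 for HepG2 and HippCulture, 0.852 for HEK293 and Neuro2a and 0.793 for HEK293 and HippCulture (n = 37 each), beside 0.712, 0.673, 0.745 and 0.715 across mRNAs. No samples are shared between cell types. The 2 human lines share an annotation, as do the 2 mouse cell types. Between species, the annotated transcript with the longest coding part differs in length for some members, such as PSMB2 with 4426 nucleotides in human and 859 in mouse. Of the 40 gene names, 37 were tested in all 4 cell types and 30 were called higher in all 4.

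Whether the response of a member differed between cell types of 1 species was tested as a difference of fold changes. Between Neuro2a and HippCulture, 16 of 37 members had a larger UV effect in Neuro2a and 0 a smaller one, beside 8.39% of all 14973 genes tested with a larger and 16.1% with a smaller effect. At an unadjusted p under 0.05, edgeR found 24 members larger and 0 smaller, and DESeq2 called 22 and 0. The median difference of the members was 0.37 on the log2 scale and that of all genes -0.14. Short mRNAs also had a higher median log2 fold change in Neuro2a than in HippCulture, at 1.49 and 1.05 below 1000 nucleotides. From 1000 to below 2000 nucleotides, where most members lie, the medians of mRNAs were 0.82 and 0.59. From 2000 to below 4000 they were lower in Neuro2a, at 0.03 and 0.1, as from 4000 upwards, at -0.72 and -0.32. The part of length in the difference was not tested. By library size alone the median of the members was -0.27, with 0 members called larger and 6 smaller, so the direction holds only relative to the bulk of genes. The 5 called members with the largest differences were Psma2 at 0.80 (SE 0.131, adjusted p = 0.00027), Psmc3ip at 0.75 (SE 0.255, adjusted p = 0.036), Psmc6 at 0.68 (SE 0.158, adjusted p = 0.0042), Psmb6 at 0.65 (SE 0.146, adjusted p = 0.0034) and Psmb1 at 0.54 (SE 0.127, adjusted p = 0.0044), the last turning to -0.10 by library size alone. Psma2 of the alpha ring counted 414, 429 and 407 before and 1233, 1110.3 and 1134 after UV in Neuro2a, and 437, 379.8 and 475 before and 654, 742 and 704 after UV in HippCulture. The nonirradiated counts of Psma2 overlapped in range, and all irradiated ones were higher in Neuro2a, each set being scaled within its own cell type. The calls held 5 of 7 alpha genes, 5 of 7 constitutive beta genes, 1 of 6 ATPases and 1 of 8 lid genes. They also held 2 of 3 assembly chaperones, 1 of 3 other genes of the base and Psmc3ip, but 0 of 2 immunoproteasome genes tested. With the replicate block 24 members were called, among them the ATPases Psmc1, Psmc3 and Psmc5 and the lid genes Psmd11 and Psmd12, and a difference between these groups of genes was not tested. The lowest differences belonged to Psmd1, at -0.23 (95% interval -0.54 to 0.08), and Psmd2, at -0.14 (-0.43 to 0.15). The count of 16 fell to 8 without the nonirradiated HippCulture replicate 3 and to 9 without the nonirradiated Neuro2a replicate 3 or HippCulture replicate 1 or the irradiated HippCulture replicate 1. HippCulture also held the astrocyte markers named above, after AraC, and their part in the difference was not tested.

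**Figure D4:**
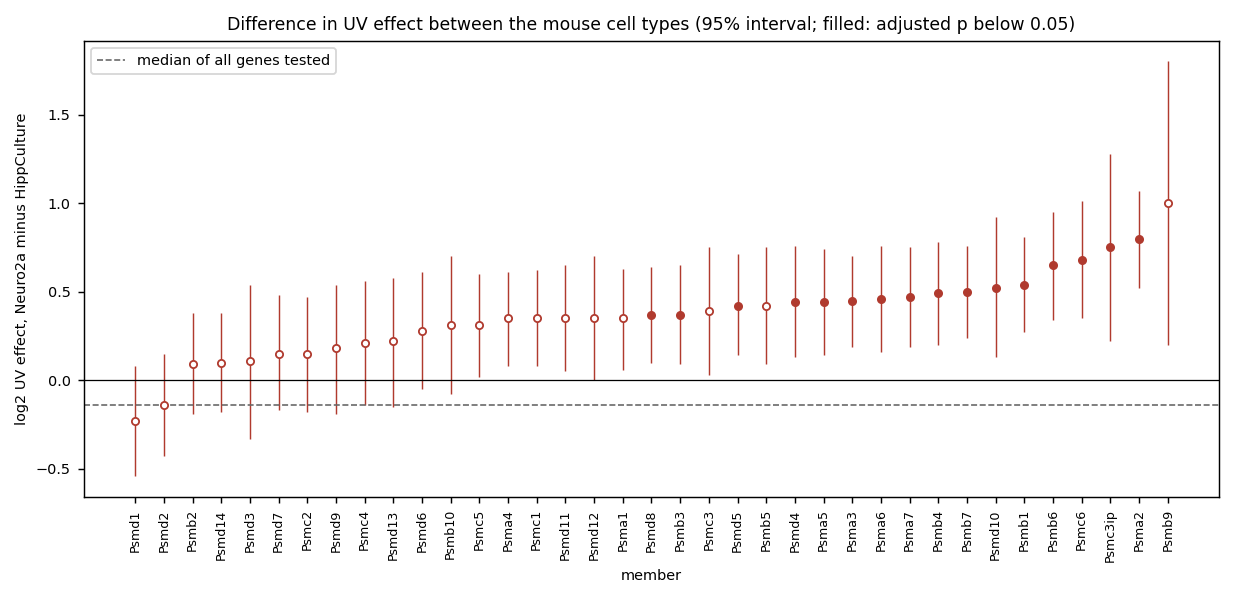
Difference in the log2 UV effect on the TMM scale, Neuro2a minus HippCulture (y axis, with 95% intervals), for the 37 members tested in both, in rising order; filled points passed an adjusted p of 0.05 and the dashed line is the median of all genes tested, -0.14. The values run from -0.23 for Psmd1 to 1.00 for Psmb9 and 16 are filled; by library size alone 32 of the 37 were below 0.

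Between HepG2 and HEK293, 0 of 37 members differed in their UV effect, beside 3.1% of all 16759 genes tested with a larger effect in HepG2 and 4.85% with a smaller one. At an unadjusted p under 0.05, edgeR found 1 member larger in HepG2, PSMB4 at 0.47 (95% interval 0.06 to 0.89), and 0 smaller, and DESeq2 called 0. The estimates ran from -0.29 for PSMC5 (-1.04 to 0.46) to 1.41 for PSMD5 (-0.33 to 3.14), and the width of these intervals leaves room for differences of the size called in the mouse. Of the 37 estimates, 32 were above 0, and 30 were below 0 by library size alone. With the replicate block, 8 members had a larger effect in HepG2, namely PSMB4, PSMC2, PSMC3, PSMC4, PSMD7, PSMD8, PSMD11 and PSMA7, with differences from 0.36 to 0.48. HepG2 and HEK293 were sequenced on different instruments, so cell line and instrument cannot be told apart.

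Before irradiation, the human lines differed most in a few members. With 37.6% of all 23830 genes tested called higher in HepG2 and 38.1% lower, 6 of 38 members were higher and 15 lower. The 5 called members with the largest differences were PSMB8 at 6.07 on the log2 scale (SE 0.305, adjusted p = 1.2e-08), PSMD5 at 5.38 (SE 0.252, adjusted p = 6.8e-09), PSMD8 at -2.14 (SE 0.178, adjusted p = 8e-07), PSMB9 at 2.08 (SE 0.398, adjusted p = 0.0006) and PSMA6 at 1.57 (SE 0.295, adjusted p = 0.00053). PSMB8 lay at 8.73 RPKM in HepG2 and 0.174 ± 0.108 RPKM (SD, n = 3) in HEK293, and PSMD5 at 4.38 ± 0.316 and 0.141 ± 0.061 RPKM. At 1 to 5 and 3 to 8 reads per HEK293 sample, these 2 folds depend on the prior count of the fit. The difference of PSMB9 reached 2.77 without the nonirradiated HEK293 replicate 3 and ran down to 1.72 without replicate 1. PSMD8 was the reverse, at 20.5 RPKM in HepG2 and 122.8 ± 18.9 RPKM in HEK293, where it was the highest member ahead of PSMA7 at 116.2 ± 23.2 RPKM, which did not differ from it beyond their spread. PSMB5 was the highest in HepG2, at 120.0 ± 19.5 RPKM, followed by PSMA7 at 76.5 ± 14.7 RPKM. By library size alone, 25 members were lower in HepG2 and 6 higher. The 3 members with the largest differences kept their direction.

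Sequence before the start sites of these 3 members is shown because their levels differed most between the human lines. The bases are from RefSeq (GRCh38.p14), on the strand of the gene, and end at the last base before the gene in the annotation of the files. Capitals mark matches, on either strand, to TGANNNNGC, a looser pattern than the core of the antioxidant response element to which NFE2L1 and NFE2L2 bind.
PSMB8, chr6:32844704-32844929, reverse strand: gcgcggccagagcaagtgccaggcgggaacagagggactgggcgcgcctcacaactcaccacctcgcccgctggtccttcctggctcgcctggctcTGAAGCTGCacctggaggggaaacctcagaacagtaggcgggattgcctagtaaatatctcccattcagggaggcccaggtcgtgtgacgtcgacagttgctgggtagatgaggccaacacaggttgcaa
PSMD5, chr9:120842985-120843172, reverse strand: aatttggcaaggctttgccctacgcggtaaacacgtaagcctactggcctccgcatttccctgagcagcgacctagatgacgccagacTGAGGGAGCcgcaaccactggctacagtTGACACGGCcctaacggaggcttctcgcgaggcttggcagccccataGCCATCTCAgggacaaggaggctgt
PSMD8, chr19:38374321-38374535, forward strand: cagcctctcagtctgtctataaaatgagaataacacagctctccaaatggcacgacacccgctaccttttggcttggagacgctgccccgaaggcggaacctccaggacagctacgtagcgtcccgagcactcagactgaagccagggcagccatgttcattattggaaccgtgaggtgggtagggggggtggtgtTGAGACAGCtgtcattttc

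The stretch before PSMD5 holds 3 matches and those before PSMB8 and PSMD8 hold 1 each, while CCAAT, the box bound by NF-Y, occurs once before PSMD8 and in neither of the others. RefSeq promoter entries, of 250 bases before and 50 after a start, were matched by symbol for 35 of the 40 human members, without PSMA7, PSMB1, PSMB6, PSMB7 and PSMD4. Over the whole entries, 26 of 43 (60.5%) held TGANNNNGC and 20 of 43 (46.5%) held CCAAT, beside 41.8% and 34.6% of all 35116 human entries. Some members have several entries that overlap, and a match is a description of the letters, not of binding.

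The mouse cell types differed in level in more members. With 39.0% of all 20940 genes tested called higher in Neuro2a and 41.4% lower, 27 of 38 members were higher in nonirradiated Neuro2a and 6 lower. The 7 constitutive beta genes were all higher, from 0.30 for Psmb5 to 1.29 for Psmb3 on the log2 scale. The 5 called members with the largest differences were Psmb8 at 7.24 (SE 0.200, adjusted p = 2.9e-16), Psmb9 at 1.94 (SE 0.261, adjusted p = 2e-06), Psmd10 at 1.64 (SE 0.135, adjusted p = 2.5e-09), Psma6 at 1.51 (SE 0.095, adjusted p = 4.4e-11) and Psmc3ip at 1.5 (SE 0.15, adjusted p = 3.6e-08). Psmb8 lay at 18.1 RPKM in Neuro2a and 0.104 ± 0.028 RPKM (SD, n = 3) in HippCulture, where it had 2 to 3 reads per sample, so that this fold too depends on the prior count. The lid gene Psmd3 led the 6 that were lower in Neuro2a, at -0.88 (SE 0.117, adjusted p = 1.9e-06). Psmb1 was the highest member in both, at 152.5 ± 2.05 RPKM in Neuro2a and 78.9 ± 7.71 RPKM in HippCulture. With the replicate block, Psmd5 and Psmd2 missed the threshold, at 0.20 (adjusted p = 0.058) and -0.19 (adjusted p = 0.053). For levels this block joined samples of the same number from different cell types, which nothing in the labels marks as pairs, so it says little about these calls. The part of the astrocyte markers, found in HippCulture after AraC, was not tested for these levels either.

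**Figure D5:**
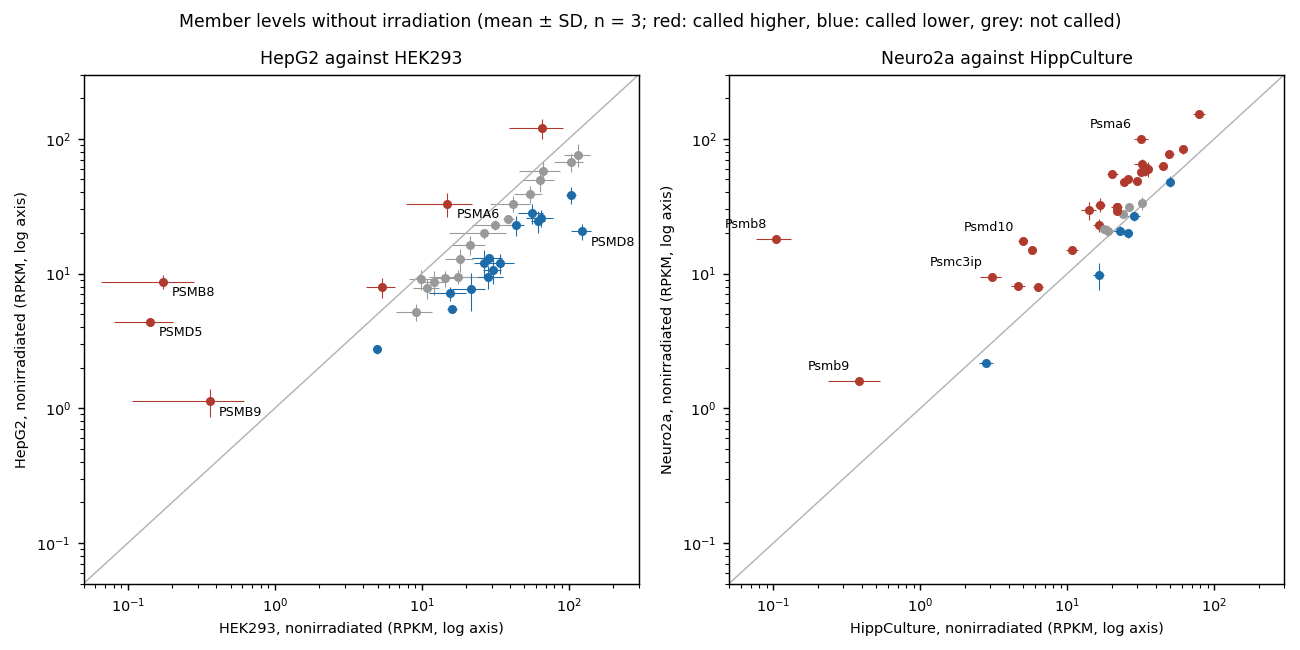
Mean level in nonirradiated samples (RPKM, log axes, bars SD, n = 3) of the members in HepG2 against HEK293 and in Neuro2a against HippCulture; red members were called higher and blue lower in the cell type on the y axis, and the line marks equal RPKM. PSMB8 and PSMD5 lie far above the line in the human panel, at 8.73 against 0.174 and 4.38 against 0.141 RPKM, and PSMD8 below it; by library size alone 25 members were called lower in HepG2 and 3 lower in Neuro2a.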

How the data were processed

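Total RNA of 24 samples was sequenced after TRIzol extraction. The deposited values are read counts per gene, made by the authors with TopHat2 2.1.1 on hg38 or mm10 and featureCounts 1.5.3 (HepG2) or 1.6.1 (the others) on GENCODE 28 or M17, per the file headers and labels. A read on several genes was counted for each, and multiply mapped reads were left out. The command names no strand, whereas the labels name a stranded kit and the study's methods an unstranded one. Symbols, gene classes and the lengths and GC shares of transcripts came from GENCODE 44 and M21. These held 98.93% of the human and 99.82% of the mouse gene identifiers. Lengths are those of the annotated transcript with the longest coding part, the longest among ties, and were not measured in these samples. For PSMC2 this gives 3993 nucleotides, beside 3547 exon bases in the annotation of the counts. HepG2 was sequenced on another instrument than the other cell types. Totals per sample ran from 6910907 to 53511592 counts.

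Counts were tested per cell type with edgeR 4.0.16 (quasi-likelihood test, TMM scaling, R 4.3.3) on genes with a mean of at least 0.5 CPM in nonirradiated samples, with Benjamini-Hochberg adjustment over all genes tested. Differences between cell types of 1 species were tested as an interaction over 12 samples, and nonirradiated levels over 6. Normalized counts used DESeq2 1.42.0 size factors within a cell type, standard errors are the log2 fold change over the root of F, 95% intervals use the t quantile of the fit, and RPKM used the exon bases of a gene. Exact permutation tests were two-sided. The alternatives were library sizes alone, DESeq2, a minimum of 10 counts in every sample, all genes with at least 1 count, the replicate number as a block, and leaving out each sample. Same-numbered samples of HEK293 moved together (r = 0.589, 0.302 and 0.391), so the numbers were taken as a sign of pairs there and not in HepG2, Neuro2a or HippCulture. The main fits were unpaired in every cell type, HEK293 included, and pairs entered only through the block. On simulated counts the test recovered 97 to 100% of genes changed 4-fold and 42 to 53% of those changed 2-fold by UV, and 86 and 9% for the mouse difference. The simulation gave every gene the same dispersion and changed 100 genes by each fold, far fewer than were called after UV. These rates check the fit and do not give the share of changes found in these data.

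The members, lists and tests were chosen with earlier results of these data known. Any member could be named; full values were given for the 3 lowest and 3 highest members of each cell type, for PSMB5 to PSMB10, for members called against the majority, and for the 5 called members with the largest differences between cell types. Genes outside the rule came from fixed lists.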

Additional observations from a re-analysis of the deposited data

Results flagged for a closer look

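The difference in the UV effect between Neuro2a and HippCulture was tested directly, and 16 of 37 members had a larger effect in Neuro2a at an adjusted p under 0.05 on the TMM scale, whereas by library size alone 0 were called larger and 6 smaller. The 5 called members with the largest differences are given here because that test separated the cell types. Psma2 differed by 0.80 on the log2 scale (95% interval 0.52 to 1.07) and by 0.16 by library size alone. Psmc3ip differed by 0.75 (0.22 to 1.28), a call that was lost in 7 of the 12 fits without 1 sample. Of its exon bases, 21.2% lie opposite exons of Mlx. Psmc6 differed by 0.68 (0.35 to 1.01), being called higher after UV in Neuro2a and not in HippCulture, but by 0.02 by library size alone. Psmb6 differed by 0.65 (0.34 to 0.95) and by 0.01 by library size alone. Psmb1 differed by 0.54 (0.27 to 0.81) and by -0.10 by library size alone. Among all mRNAs of 1000 to below 2000 nucleotides, the median UV effect was also higher in Neuro2a, at 0.82, than in HippCulture, at 0.59. Among longer mRNAs it was not, and the part of length was not tested. Groups of 3 samples were not tested for outlying samples.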

How the results depend on the processing

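Scaling had the largest reach. By library size alone, members called higher and lower after UV numbered 17 and 10 in HepG2 cells, 15 and 4 in HEK293 cells, 12 and 6 in Neuro2a cells, and 19 and 1 in HippCulture, beside 1734 and 15830, 1557 and 11168, 1058 and 12852, and 1320 and 9149 of all genes. The difference HepG2 minus HEK293 then gave 120 and 2930 genes, Neuro2a minus HippCulture 64 and 7519 with 0 and 6 members, and the nonirradiated levels 25 members lower in HepG2 and 3 lower in Neuro2a. Over all members tested, 14, 10, 15 and 7 UV effects were then below 0 in HepG2, HEK293, Neuro2a and HippCulture, against 2, 3, 0 and 0 on the TMM scale. Among members given with full values, those that reversed were PSMD1 in HepG2 (-1.0), Psmd1 (-1.13), Psmd2 (-0.83) and Psmd11 (-0.65) in Neuro2a, Psmc6 (-0.38), Psmd11 (-0.36), Psmd1 (-0.26) and Psmb9 (-0.12) in HippCulture, and the difference of Psmb1 (-0.10). The scaling itself moved these values.

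With at least 10 counts in every sample, 2 members were lower in HepG2, HepG2 minus HEK293 gave 268 and 522 genes, the levels 5468 and 5384 (human) and 4939 and 4915 (mouse), and Psmd1 in Neuro2a was -0.08; fewer genes were tested. With every gene of at least 1 count, 1 member was lower in HEK293, HepG2 minus HEK293 gave 335 and 1244 genes, Neuro2a minus HippCulture 766 genes and 4 members higher, and Psmd1 in Neuro2a was -0.02; more genes were tested. With the replicate block, 2 members were lower in HEK293 and HepG2 minus HEK293 gave 8 members higher and 2092 and 1443 genes. DESeq2 gave 899 genes higher for HepG2 minus HEK293. The cause was not tested for the block and DESeq2. In Neuro2a and HippCulture, where the pairing rule was not met, every sample correlated best with its own number, a hint from the data only, and the block gave 24 members for Neuro2a minus HippCulture.

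Without 1 sample each, members higher after UV numbered 36 in HepG2 cells, 24 to 32 in HEK293 cells, 37 in Neuro2a cells and 32 to 35 in HippCulture, with 0 to 1 lower in HEK293 (1 without the irradiated replicate 1 or 2). HepG2 minus HEK293 gave 0 to 2 members, 236 to 1034 genes higher and 500 to 895 lower (2 members without the irradiated HEK293 replicate 1). Neuro2a minus HippCulture gave 8 to 20 members, 905 to 1461 genes higher and 1854 to 2484 lower. Levels gave 6 to 10 members higher and 13 to 16 lower in HepG2 (10 without the nonirradiated HEK293 replicate 1), and 24 to 27 higher and 3 to 6 lower in Neuro2a (3 without the nonirradiated replicate 3 of either). PSMD5 in HEK293 ran from -5.38 to -1.23, PSMD12 in HepG2 from -0.13 to 0.01, PSMD11 in HEK293 from -0.51 to 0.25 and Psmd1 in Neuro2a from -0.08 to 0.15. Depth limits PSMD5, PSMB8 and PSMB9 in HEK293 and Psmb8 and Psmb9 in HippCulture, at 21 reads or fewer per sample.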

Other observations

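Other features of the transcripts ran along with the UV effect across members, as across all mRNAs tested. Spearman's rho with the length of the 3′ UTR was -0.546 in HepG2 cells, -0.571 in HEK293 cells, -0.344 in Neuro2a cells and -0.505 in HippCulture, beside -0.461, -0.483, -0.436 and -0.455 across mRNAs. With the GC share of the transcript it was 0.590, 0.517, 0.441 and 0.521, beside 0.399, 0.424, 0.387 and 0.466. With the nonirradiated level in RPKM it was 0.506, 0.437, 0.416 and 0.491, beside 0.379, 0.232, 0.247 and 0.091. These are descriptions across genes of the same libraries.

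Annotated pseudogenes named after members, 36 in human and 4 in mouse, held 0.00333 to 0.342% of the counts of the members in human samples and 0 to 0.00676% in mouse samples, reads mapped to several places having been left out.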
